A study of Mus musculus with 9 samples.

Results

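The complement genes followed were the complement components C3, C4b and Cfb, the proteases C1ra, C1s1 and Masp1, and the regulators Serping1 and Cd55. They were chosen by name, with earlier results of these data known. They are 8 of the 52780 genes in the deposited count table, and all 8 were among the 19545 genes with enough reads to be tested. C2C12 cells, immortal mouse myoblasts that fuse to multinucleated myotubes when serum is withdrawn, were measured by RNA-seq at day 4 of differentiation in 9 samples. The control samples, labelled wild type, are named si Ctrl here, and each of the 3 groups had 3 replicates. The study lists a scramble siRNA as control, but the labels do not say whether these samples received it, and if they did not, knockdown and transfection cannot be told apart in the contrasts with si Ctrl. In the knockdown protocol, siRNA was given at 10 nM by lipofection, repeatedly from before the change to differentiation medium, against the macroH2A1.1 isoform (si mH2A1.1) or the macroH2A1.2 isoform (si mH2A1.2) of the histone variant macroH2A1. All groups share the line, the medium with horse serum and the time of collection. The study describes the replicates as independent biological replicates, without saying how the cultures were separated.

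Complement is a set of plasma and membrane proteins that tag and lyse microbes and damaged cells. In the classical pathway the proteases C1r and C1s cleave C4 and C2, in the lectin pathway MASP proteases do so, and in the alternative pathway factor B forms the enzyme that cleaves C3. The cascade is held in check by C1 inhibitor, which blocks C1r, C1s and MASP proteases, and by membrane proteins such as CD55, which dissociates the C3-cleaving enzymes. Most circulating complement is made by the liver, and other cells make components locally, several of them in response to interferon and other inflammatory signals.

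The totals ranged from 36924252 to 42223108 counts per sample, and 3 counts, used here as the floor of detection, equalled 0.0691 to 0.0826 CPM (counts scaled to a common library size with TMM factors). H2afy, the gene of both macroH2A1 isoforms, was at 56.3, 62.4 and 61.0 CPM in si Ctrl, at 38.8, 30.0 and 30.9 CPM in si mH2A1.1 and at 46.8, 47.2 and 43.2 CPM in si mH2A1.2. Its gene count sums the isoforms and does not show which of them was depleted. The 10 differentiated muscle genes that were looked at, with Myh3 and Acta1 the most abundant, summed to at least 13992 CPM in every sample. The 8 hepatocyte markers summed to at most 0.42 CPM, and Ttr and Serpina1a were at 0 counts throughout.

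The members were expressed at very different levels, which are compared per kilobase of merged exons. In si Ctrl, Masp1 was the highest at 8.41 ± 0.785 CPM per kb (SD, n = 3). It was followed by C1s1 at 7.05 ± 4.58, Cd55 at 6.08 ± 2.27, C1ra at 5.92 ± 1.92 and Serping1 at 3.93 ± 1.56 CPM per kb. The ranges of mean ± SD of neighbours in this order overlapped. Cfb, at 0.536 ± 0.137 CPM per kb, was well below them, and C4b (0.0711 ± 0.033) and C3 (0.0671 ± 0.0282) were lower again and not apart from each other. With si mH2A1.1 the order of the means was Masp1 (11.5), Serping1 (11.4), Cd55 (8.85), C1ra (4.52), Cfb (1.79), C1s1 (1.56), C3 (0.17) and C4b (0.139 CPM per kb), so that C1s1 stood sixth instead of second. With si mH2A1.2 it was Masp1 (10.6), Serping1 (7.64), C1s1 (7.6), C1ra (6.81), Cd55 (5.48), Cfb (0.518), C4b (0.0802) and C3 (0.0623 CPM per kb). Divided by the longest transcript instead, Cd55 in si Ctrl was at 9.42 and C1s1 at 7.48, which exchanges their places.

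**Figure D1:**
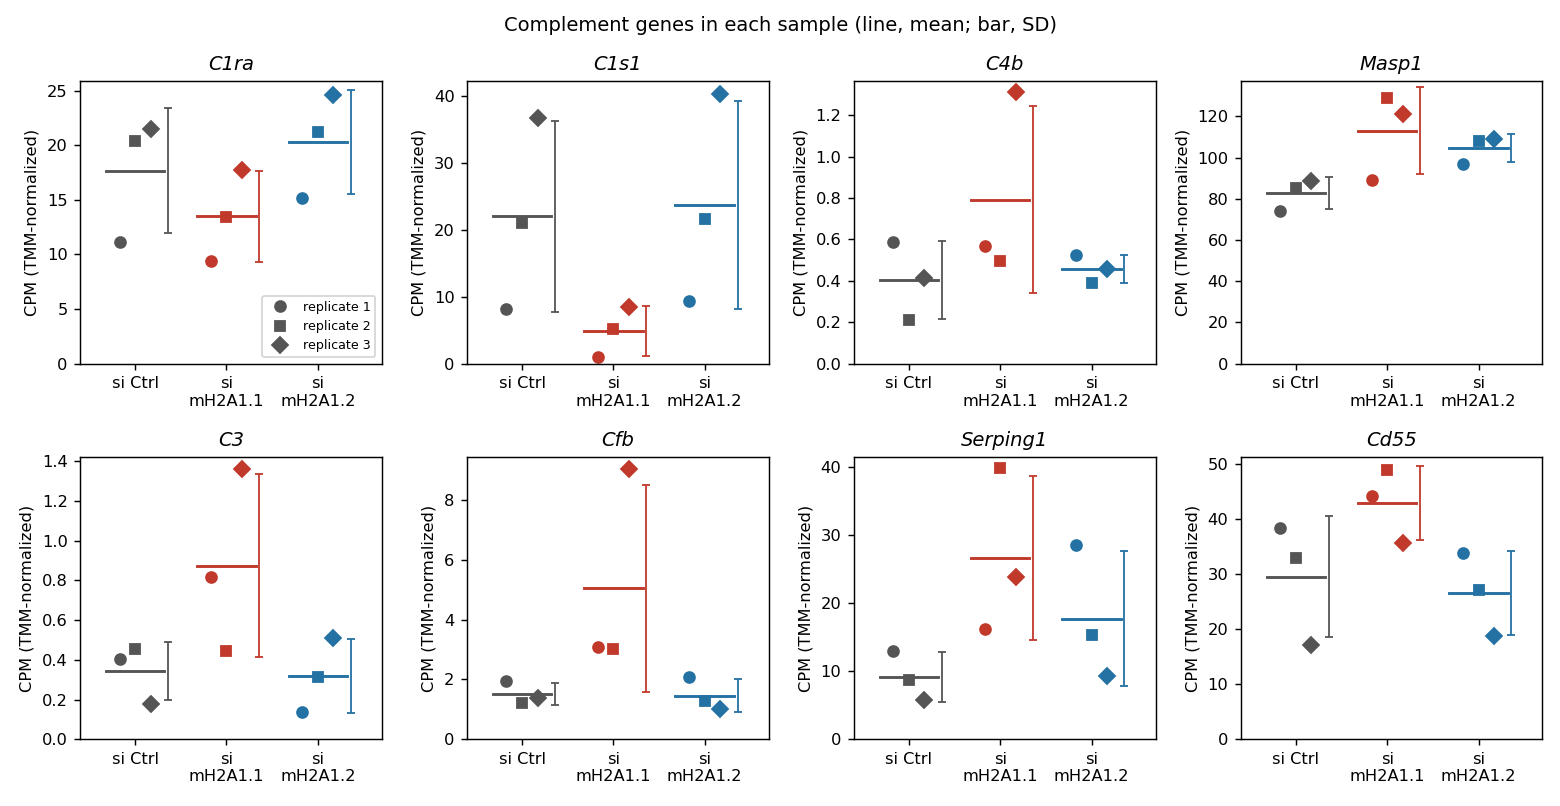
CPM of each complement gene (y axis, linear from 0) in the 3 replicates of each group (x axis), with a line at the group mean and a bar for the SD. All 3 si mH2A1.1 samples lie above all 3 si Ctrl samples for Cfb, Serping1 and Masp1, and C1s1 spans 8.19 to 36.8 CPM within si Ctrl alone.

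Among the 8 genes, none was differentially expressed with si mH2A1.1 against si Ctrl at an adjusted p under 0.01 together with a log2 fold change of 0.8 or more in either direction (edgeR quasi-likelihood test, Benjamini-Hochberg adjustment over all tested genes), where 1.8% of all tested genes were. At an adjusted p of at most 0.05, which 11.1% of tested genes reached, Cfb was the 1 member called. At an unadjusted p under 0.05 there were 5 members, C3, Cfb, C1s1, Serping1 and Masp1, where 29.6% of tested genes passed. DESeq2, which the study used, called 1 member, Cfb, limma-voom called 0, and edgeR with the replicate number as a block called 1, C1s1. With that block, C1ra, Serping1, Cd55 and Masp1 reached an adjusted p of at most 0.05 besides Cfb and C1s1 (0.043, 0.0233, 0.0225 and 0.0128, edgeR). The shares of all tested genes called in these other fits are not given here, so their counts cannot be set against them. In 3 members, Cfb, Serping1 and Masp1, every si mH2A1.1 sample was above every si Ctrl sample, a pattern of 17.5% of tested genes, and in 0 members every sample was below, against 16.7%. The log2 fold changes ranged from -2.17 to 1.73 with a median of 0.75, beside a median of -0.00908 over all tested genes. The median was 0.09 over the 25 other complement genes that were looked at and tested. Since the members were chosen with earlier results of these data known, their median may partly reflect the choice.

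With si mH2A1.2 against si Ctrl, 0 members were differentially expressed (0.179% of tested genes were), 0 reached an adjusted p of at most 0.05 (2.35%) and 1, Masp1, had an unadjusted p under 0.05 (15.9%). DESeq2 and limma-voom also called 0. Masp1 was also the 1 member whose samples were all above the controls, as were 11.7% of tested genes, and 0 members were all below, as were 10.8%. The log2 fold changes of the members ranged from -0.15 to 0.96 with a median of 0.14.

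Between the knockdowns, si mH2A1.1 against si mH2A1.2, again 0 members were differentially expressed in edgeR, where 6.38% of tested genes were. Cfb reached an adjusted p of at most 0.05, as did 22.5% of tested genes, and C3, Cfb, C1s1 and Cd55 had an unadjusted p under 0.05, as did 36.2%. DESeq2 called 1 member, Cfb, limma-voom 0, and edgeR with the replicate number as a block 1, C1s1. No share of all tested genes is given for these other fits. Cfb and Cd55 were higher in every si mH2A1.1 sample than in every si mH2A1.2 sample (20.3% of tested genes), and C1s1 was lower (19.4%). The contrasts share samples, so their values stand side by side and are not independent of each other.

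**Figure D2:**
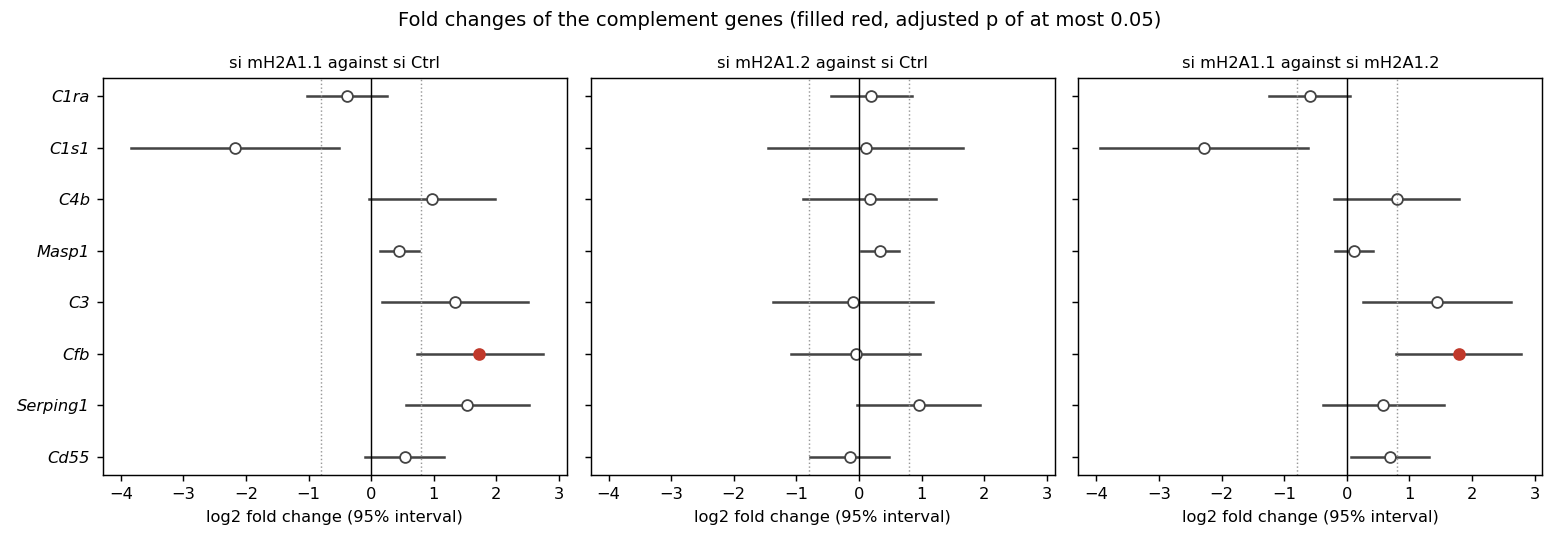
Log2 fold change (x axis, point) with its 95% interval (line) of the 8 genes (y axis) in the 3 contrasts, with dotted lines at the fold change cutoff of 0.8 in each direction. Cfb, filled, is the 1 gene with an adjusted p of at most 0.05, at 1.73 against si Ctrl and 1.79 against si mH2A1.2.

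Among the initiating proteases, C1ra encodes C1r, which cleaves C1s within the C1 complex. It lies on the plus strand of chromosome 6 (GRCm38, chr6:124512405-124523443). Its level was 11.1, 20.4 and 21.5 CPM in si Ctrl, 9.36, 13.4 and 17.7 CPM in si mH2A1.1 and 15.2, 21.2 and 24.6 CPM in si mH2A1.2. The 3 groups overlapped, and the log2 fold change was -0.39 ± 0.29 (SE) with si mH2A1.1 (adjusted p = 0.406, edgeR) and 0.20 ± 0.29 with si mH2A1.2 (adjusted p = 0.802, edgeR). Of the 50-base windows of its transcripts, as long as the reads, 48% were also in its paralog C1rb. C1rb was estimated at 59 to 111 counts per sample against 379 to 915 for C1ra, and the division of reads between them is uncertain.

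C1s1, which encodes the C1s protease that cleaves C4 and C2, lies beside it on the minus strand (chr6:124530345-124542359). It showed the lowest fold change of the members. Its level was 8.19, 21.1 and 36.8 CPM in si Ctrl, 0.938, 5.26 and 8.41 CPM in si mH2A1.1 and 9.41, 21.6 and 40.3 CPM in si mH2A1.2. Replicate 1 was the lowest and replicate 3 the highest in each group, and the highest si mH2A1.1 sample was just above the lowest control and below every si mH2A1.2 sample. With si mH2A1.1 it had a log2 fold change of -2.17 ± 0.75 against si Ctrl (95% interval -3.84 to -0.51, adjusted p = 0.0848, edgeR) and -2.28 ± 0.75 against si mH2A1.2 (adjusted p = 0.0524, edgeR). With the replicate number as a block, it was called in both contrasts, at -2.30 against si Ctrl (adjusted p = 0.000866, edgeR). Its mean was 4.87 ± 3.75 CPM with si mH2A1.1 and 22.0 ± 14.3 CPM in si Ctrl (SD, n = 3). Without si Ctrl replicate 3 the log2 fold change was -1.60, without si mH2A1.1 replicate 1 it was -1.68 and without si mH2A1.1 replicate 3 it was -2.83, with adjusted p of 0.238, 0.208 and 0.104 in edgeR. For si mH2A1.2 the value was 0.11 ± 0.70 (adjusted p = 0.964, edgeR). Its paralog C1s2, which shares 21.8% of the windows of C1s1, was at 0.75, 2.5 and 3.45 CPM in si Ctrl, 0.519, 0.519 and 0.76 CPM in si mH2A1.1 and 1.1, 3.03 and 4.35 CPM in si mH2A1.2, with reads that may be shared. Summed with C1s2, C1s1 had a log2 fold change of -2.15 with si mH2A1.1 (adjusted p = 0.075, edgeR). The antisense gene Gm16567, with 13.5% of the windows, was at 0 counts in all samples.

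The summed level of 10 fibroblast and mesenchyme genes, to which the collagens Col1a1, Col1a2 and Col3a1 belong, was lower in the same group as C1s1. These genes summed to 13575 to 16546 CPM in si Ctrl, to 5270 to 9292 CPM in si mH2A1.1 and to 21872 to 31353 CPM in si mH2A1.2, without overlap between groups. The sum is mostly that of Col3a1, Col1a1 and Col1a2, with means of 8596, 2945 and 2400 CPM in si Ctrl. Lum, Pdgfra, Pi16 and Thy1 had means of 16, 12.6, 6.85 and 0.511 CPM there and add little to it. With si mH2A1.1 against si Ctrl 3 of the 10 fell and 0 rose, while Dcn and Pdgfra had log2 fold changes of 0.06 and 0.11, and against si mH2A1.2 7 fell. Of all tested genes, 1.8% and 6.38% were called in these contrasts. Within si Ctrl the replicate order of this sum was that of C1s1, while within si mH2A1.2 it was the reverse, replicate 1 having the highest sum and the lowest C1s1. Within si mH2A1.1 both were lowest in replicate 1, but the sum was highest in replicate 2 and C1s1 in replicate 3. The part of these genes in the level of C1s1 was not tested, and in bulk RNA fewer cells of a type and less RNA per cell cannot be told apart.

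Masp1 encodes the lectin-pathway protease MASP-1 and, by alternative splicing, MASP-3, and its gene count sums these products. It lies on the minus strand of chromosome 16 (chr16:23449417-23520815). Its level was 74.0, 85.2 and 88.8 CPM in si Ctrl, 89.1, 129 and 121 CPM in si mH2A1.1 and 97.1, 108 and 109 CPM in si mH2A1.2. Every knockdown sample was above every control, by a margin of less than 1 CPM for si mH2A1.1 replicate 1. The fold changes were small, 1.37-fold with si mH2A1.1 (log2 0.45 ± 0.14, adjusted p = 0.0592, edgeR) and 1.26-fold with si mH2A1.2 (log2 0.34 ± 0.14, adjusted p = 0.263, edgeR), and both intervals ended below the fold change cutoff, at 0.76 and 0.64. The interval of the difference between the knockdowns ran from -0.19 to 0.42. Its 5′ end overlaps Rtp4, an interferon-induced gene on the opposite strand, which was at 99 to 154 counts in si Ctrl and 267 to 1066 counts in si mH2A1.1, against 2765 to 3446 and 3608 to 5261 counts for Masp1. Whether the libraries keep strand is not given in the sources used here. Of the 50-base windows of Masp1, 0.175% were also in transcripts of other genes, on either strand, and no single gene held over 1% of them. The part of Rtp4 reads in the Masp1 count was not tested.

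C4b encodes C4, which C1s and MASP proteases cleave, and lies on the minus strand of chromosome 17 (chr17:34728380-34743882). Its level was 0.589, 0.213 and 0.413 CPM in si Ctrl, 0.568, 0.494 and 1.31 CPM in si mH2A1.1 and 0.523, 0.391 and 0.457 CPM in si mH2A1.2. These are 8 to 57 counts per sample, and si mH2A1.1 replicate 3 stood apart from the other 8 samples. The log2 fold change with si mH2A1.1 was 0.97 ± 0.45 (adjusted p = 0.184, edgeR) and it was 0.39 without that sample (adjusted p = 0.608, edgeR). C4b shares 34.6% of its windows with C4a, which was higher in every sample, at 174 to 249 counts. With the counts of both summed, the direction turned, to a log2 fold change of -0.21 (adjusted p = 0.399, edgeR).

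C3 is the component on which all pathways converge. Its gene lies on the minus strand of chromosome 17 (chr17:57203970-57228136) and shared 0% of its windows with other genes. Its level was 0.402, 0.453 and 0.18 CPM in si Ctrl, 0.815, 0.445 and 1.36 CPM in si mH2A1.1 and 0.138, 0.313 and 0.51 CPM in si mH2A1.2, from 5 to 59 counts per sample. Replicates 1 and 3 of si mH2A1.1 were above the other 7 samples, while replicate 2 was within the range of the controls. C3 was 2.53-fold higher on average with si mH2A1.1 than in si Ctrl, which did not pass the test (log2 1.34 ± 0.53, adjusted p = 0.121, edgeR). Between the knockdowns it was 1.44 ± 0.53 (adjusted p = 0.0779, edgeR).

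Cfb, complement factor B, the protease component of the alternative pathway's C3-cleaving enzyme, had the highest fold change of the members with si mH2A1.1. It lies on the minus strand of chromosome 17 (chr17:34856374-34862518). Its level was 1.95, 1.23 and 1.37 CPM in si Ctrl, 3.09, 3.01 and 9.03 CPM in si mH2A1.1 and 2.09, 1.28 and 1.02 CPM in si mH2A1.2. All si mH2A1.1 samples were above all others, and replicate 3 was far above the others. Short of the adjusted threshold of 0.01, Cfb was 3.33-fold higher than in si Ctrl (log2 1.73 ± 0.45, 95% interval 0.73 to 2.74, adjusted p = 0.0366, edgeR) and 3.45-fold higher than with si mH2A1.2 (log2 1.79 ± 0.45, adjusted p = 0.0193, edgeR). With si mH2A1.2 it was at 0.965 times si Ctrl (log2 interval -1.08 to 0.98).

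DESeq2 called Cfb in both contrasts, with adjusted p of 0.0018 and 0.0007, while limma-voom gave 0.0561 and 0.0309. Without si mH2A1.1 replicate 3 the log2 fold changes of Cfb were 1.01 and 1.06, with adjusted p of 0.113 and 0.0608 in edgeR, and leaving out any si Ctrl sample, si mH2A1.1 replicate 1 or si mH2A1.2 replicate 2 against si Ctrl (up to 0.13), or si mH2A1.2 replicate 2 or 3 between the knockdowns (up to 0.0761), also took the adjusted p over 0.05. Cfb shares 73% of its windows with Gm20547, a readthrough gene model that contains it and was estimated at no more than 8 counts in any sample. The counts of Cfb summed with it gave log2 1.70 against si Ctrl (adjusted p = 0.0382, edgeR).

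The 25 interferon-induced genes that were looked at, Stat2, Irf1 and Ddx58 among the most abundant, followed the same order of samples within si mH2A1.1 as Cfb, C3 and C4b. They summed to 758, 487 and 1330 CPM in replicates 1, 2 and 3 of si mH2A1.1, while in si Ctrl they summed to 210 to 242 CPM and in si mH2A1.2 to 218 to 265 CPM. Replicates 1 and 2 of si mH2A1.1 were close for Cfb (3.09 and 3.01 CPM) and C4b (0.568 and 0.494 CPM), so for these genes the order rests on replicate 3. With si mH2A1.1 against si Ctrl 18 of the 24 tested interferon-induced genes rose and 0 fell, beside 1.8% of all tested genes called. Stat2 (log2 0.36, adjusted p = 0.155, edgeR) and Irf1 (log2 -0.10, adjusted p = 0.604, edgeR) were not called. The part of this list in the level of Cfb was not tested. The genes of at least 1 CPM whose log2 CPM over the 9 samples was most like that of Cfb were Znfx1 (Pearson r = 0.974) and H2-Q5 (r = 0.972), given as a description out of 12140 genes.

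**Figure D3:**
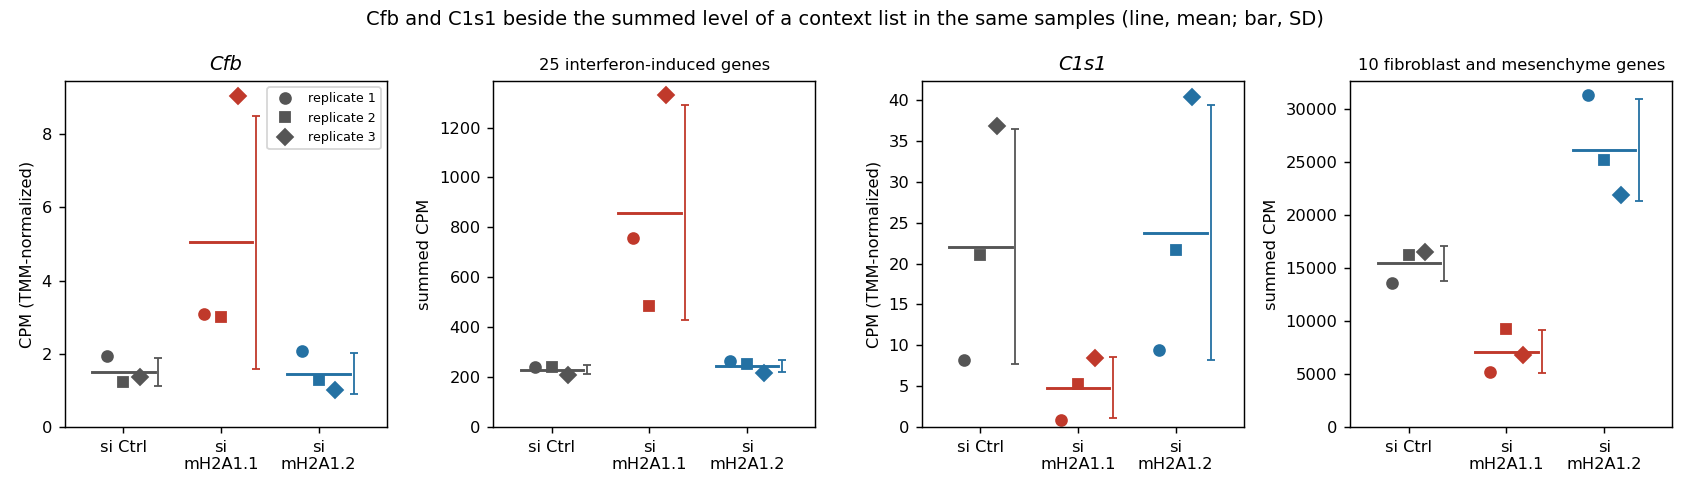
CPM of Cfb and C1s1 and the summed CPM of 25 interferon-induced genes and 10 fibroblast and mesenchyme genes (y axes, linear from 0) in the 3 replicates of each group (x axis), with the mean as a line and the SD as a bar. Replicate 3 of si mH2A1.1 is the highest for Cfb, at 9.03 CPM, and for the interferon-induced genes, at 1330 CPM, while C1s1 and the fibroblast and mesenchyme genes both have their lowest sample in si mH2A1.1 replicate 1. Within si mH2A1.1, C1s1 is highest in replicate 3 and the fibroblast and mesenchyme genes in replicate 2.

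Serping1 encodes C1 inhibitor and lies on the minus strand of chromosome 2 (chr2:84765387-84775444), with 0% of its windows in other genes. Its level was 13, 8.66 and 5.78 CPM in si Ctrl, 16.2, 39.8 and 23.8 CPM in si mH2A1.1 and 28.6, 15.4 and 9.26 CPM in si mH2A1.2. The si mH2A1.1 samples were all above the controls, and the si mH2A1.2 samples overlapped with both groups. With si mH2A1.1 Serping1 was 2.91-fold higher than in si Ctrl, short of the adjusted threshold (log2 1.54 ± 0.45, 95% interval 0.55 to 2.53, adjusted p = 0.0521, edgeR). For si mH2A1.2 it was 0.96 ± 0.44 (interval -0.03 to 1.94, adjusted p = 0.329, edgeR), and the knockdowns differed by 0.58 ± 0.43 (adjusted p = 0.37, edgeR). Its sample order in si mH2A1.1 was not that of the interferon-induced genes, since replicate 2 was the highest for Serping1 and the lowest for that list. Socs2 (r = 0.953) and Srrd (r = 0.95) were the genes most like it.

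Cd55, decay-accelerating factor, is anchored in the cell membrane and protects the cell that carries it. Its gene lies on the minus strand of chromosome 1 (chr1:130439027-130462744). Its level was 38.4, 33.0 and 17.2 CPM in si Ctrl, 44.2, 49.0 and 35.6 CPM in si mH2A1.1 and 33.8, 27.2 and 18.7 CPM in si mH2A1.2. The si mH2A1.1 samples were above all si mH2A1.2 samples, while 1 of them was below the highest control. The log2 fold change was 0.54 ± 0.28 against si Ctrl (adjusted p = 0.231, edgeR) and 0.69 ± 0.28 against si mH2A1.2 (adjusted p = 0.107, edgeR). Its paralog Cd55b, with 8% of the windows, had at most 9 counts in a sample.

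For the other members, the genes most like C3 over the 9 samples were Lin54 (r = 0.959) and Abl2 (r = 0.951), and those most like C4b were Znfx1 (r = 0.91), as for Cfb, and Zfp992 (r = 0.903). C1ra was most like Samd4 (r = 0.97) and Usp53 (r = 0.957), and C1s1 most like Atf2 (r = 0.98) and Fgf7 (r = 0.978). Cd55 was most like Epb41l4a (r = 0.963) and Ago4 (r = 0.954), and Masp1 most like Rraga (r = 0.918) and Ptprk (r = 0.886). With 9 samples in 3 groups, each the best of 12140 genes, these values describe the samples only.

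RefSeq promoter sequences (GRCm38.p6, 250 bases before to 50 after the start) were at hand for 4 members, C3, C1ra, C1s1 and Cd55. The 250 bases before the start are shown for C3, which was higher on average with si mH2A1.1, for C1s1, which was lower, and for Cd55, a membrane regulator, each 5′ to 3′ on the minus strand. Capitals mark matches, on either strand, to TTGCNNAA, a short form of the C/EBP motif, bound by a family of factors known for acute-phase genes.
C3 promoter, chr17:57228137-57228386: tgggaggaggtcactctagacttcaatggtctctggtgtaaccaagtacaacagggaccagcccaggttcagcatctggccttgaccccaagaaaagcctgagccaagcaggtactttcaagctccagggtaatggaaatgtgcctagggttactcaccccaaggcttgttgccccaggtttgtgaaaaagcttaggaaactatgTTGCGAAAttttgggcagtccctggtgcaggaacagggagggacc
C1s1 promoter, chr6:124542360-124542609: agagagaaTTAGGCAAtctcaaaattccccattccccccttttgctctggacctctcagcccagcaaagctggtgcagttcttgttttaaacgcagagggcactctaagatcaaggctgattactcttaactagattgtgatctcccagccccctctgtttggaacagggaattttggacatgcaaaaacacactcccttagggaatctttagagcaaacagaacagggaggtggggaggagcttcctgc
Cd55 promoter, chr1:130462745-130462994: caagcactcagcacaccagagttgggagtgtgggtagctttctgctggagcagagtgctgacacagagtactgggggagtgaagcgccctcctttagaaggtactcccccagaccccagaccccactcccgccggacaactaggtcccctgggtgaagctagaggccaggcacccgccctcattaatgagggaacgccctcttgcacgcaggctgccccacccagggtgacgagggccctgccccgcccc

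The C3 promoter held 1 such match, from position -45 to -38 before the start, on the strand of the gene. The C1s1 promoter held 1 on the opposite strand, from -242 to -235, and the Cd55 promoter held 0. Of all 32851 promoters of the table, 10.8% held the motif within the 300 bases. The interferon motif ISRE (GAAANNGAAA), in 3.44% of promoters, the NF-kB motif, in 4.51%, and the GAS motif (TTCNNNGAA), in 8.3%, had 0 matches in these 3 promoters on either strand. C1ra had 1 match to GAS, at 32 to 40 bases after its start, 1 to TTGCNNAA, 16 to 23 bases after it, and 0 to the others. ISRE and GAS matches may overlap each other, and a match is a run of letters, not a binding site.

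Of 59 complement genes looked at, the 8 members included, 33 were tested and 9 were at 0 counts in all samples, which allows up to 3 counts in each. Those at 0 were the C1q chains C1qa, C1qb and C1qc, the lectins Mbl1 and Mbl2, the factor D gene Cfd, C8b, Cfhr3 and the macrophage receptor Vsig4. Of the terminal pathway, which forms the lytic pore, C8g was the 1 tested gene of 7, at 1.69 ± 0.23 CPM per kb in si Ctrl (SD, n = 3). Hc, which encodes C5, was at 0 in si Ctrl and si mH2A1.2. Expressed at levels like those of the leading members in si Ctrl were the scavenger receptor Colec12 (8.52 ± 3.17 CPM per kb), properdin, Cfp (4.62 ± 0.987), Cr1l, also called Crry (4.2 ± 0.472), and Cd59a, which blocks the lytic pore (4.1 ± 0.367). C1qbp, a mitochondrial protein that can bind C1q, was at 38.2 ± 1.63 CPM per kb. C4a was at 0.934 ± 0.122 and clusterin, Clu, at 0.0895 ± 0.0169 CPM per kb.

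**Figure D4:**
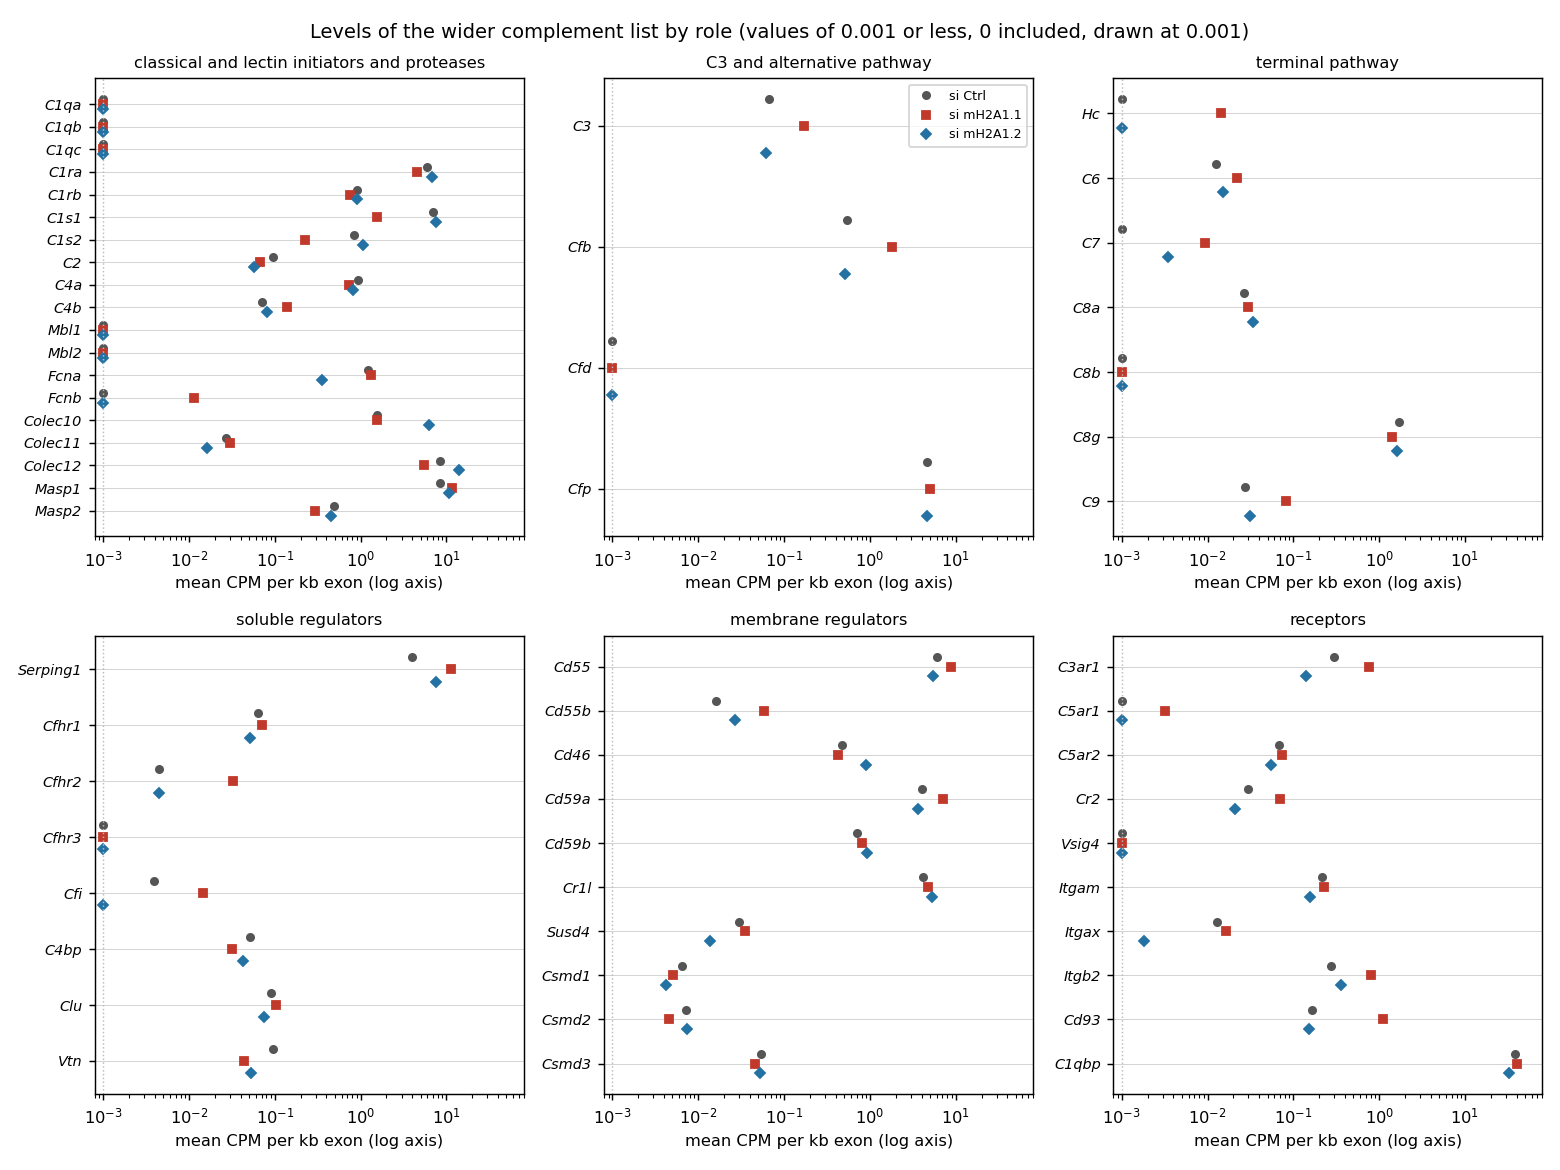
Mean CPM per kb of merged exons (x axis, log scale, 0.001 and below drawn at 0.001) of complement genes (y axis) by role, with 1 symbol per group. The C1q chains, Mbl1, Mbl2 and Cfd sit at 0, Masp1, Cd55, Serping1 and C1ra at 3.93 to 11.5 CPM per kb, and C3 and C4b at 0.0623 to 0.17 CPM per kb.

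With si mH2A1.1 against si Ctrl, 1 of the 33 tested genes rose, Cd93, and 0 fell, beside 1.8% of all tested genes called, and 5 reached an adjusted p of at most 0.05, all with higher levels, beside 11.1% of all tested genes. The count of 1 was 6 with DESeq2 and 0 without certain single samples, named with Cd93. No share of all tested genes is given for DESeq2. By role, 0 of 12 initiators and proteases, 1 of 3 genes of C3 and the alternative pathway, 0 of 1 terminal, 0 of 4 soluble and 1 of 6 membrane regulators and 3 of 7 receptors were among these 5. The median log2 fold change of the 33 genes was 0.11.

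Cd93, a receptor of endothelial and myeloid cells once described as a C1q receptor, was at 0.616, 1.28 and 1.37 CPM in si Ctrl, 9.73, 6.3 and 6.4 CPM in si mH2A1.1 and 0.661, 1.33 and 1.1 CPM in si mH2A1.2. It rose 6.85-fold with si mH2A1.1 against si Ctrl (log2 2.78 ± 0.34, adjusted p = 0.00268, edgeR), with no overlap between the groups. Left out in turn, si Ctrl replicates 2 and 3 and si mH2A1.1 replicates 1 and 3 took its adjusted p over the threshold, to between 0.0102 and 0.0146 in edgeR, at log2 fold changes of 2.55 to 2.96. Itgb2, the shared chain of the integrin-type complement receptors, had a log2 fold change of 1.57 ± 0.31 (adjusted p = 0.0137, edgeR), the C3a receptor C3ar1 of 1.33 ± 0.31 (adjusted p = 0.0242, edgeR) and Cd59a of 0.81 ± 0.21 (adjusted p = 0.0384, edgeR), each with no overlap between groups. In this contrast 17.5% of tested genes were higher without overlap.

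Of 10 macrophage and leukocyte markers, 4 were tested and 1 rose with si mH2A1.1 against si Ctrl, the lysosomal glycoprotein gene Cd68 (log2 1.62, adjusted p = 0.00565, edgeR). Of all tested genes, 1.8% were called in this contrast. The list summed to 7.55 to 10.3 CPM in si Ctrl, 12 to 18.2 CPM in si mH2A1.1 and 9.08 to 10.4 CPM in si mH2A1.2. Cd68 alone had a mean of 2.98 CPM in si Ctrl and 9.14 CPM in si mH2A1.1. The other tested markers, Cd14, Itgam and Aif1, had log2 fold changes of 0.31, 0.09 and -0.41 with si mH2A1.1 against si Ctrl. Tyrobp was at 0 counts in all samples and Adgre1 at no more than 1 count, Ptprc had at most 9 counts and Csf1r at most 16, while Cd14 had 117 to 218 counts and Itgam 28 to 54. The part of such cells in these results was not tested. Of 6 endothelial markers 4 were tested and 0 were called, with Tek at an adjusted p of at most 0.05 (log2 1.84, adjusted p = 0.033, edgeR) and no overlap with si Ctrl. The others, Cdh5, Vwf and Pecam1, had log2 fold changes of 1.28, 0.15 and -0.55 (adjusted p of 0.249, 0.637 and 0.162, edgeR). Pecam1 was lower in every si mH2A1.1 sample than in every si Ctrl sample, as were 16.7% of tested genes. Without overlap in the direction of Tek were 17.5%. The list summed to 5.57 to 8.12 CPM in si Ctrl and 6.99 to 9.01 CPM in si mH2A1.1.

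With si mH2A1.2 against si Ctrl, 1 of the 33 genes rose, Colec10, a collectin that recognises sugars and works with MASP proteases, and 0 fell, beside 0.179% of all tested genes called. Its level was 7.28, 6.34 and 7.71 CPM in si Ctrl, 9.46, 6.55 and 5.37 CPM in si mH2A1.1 and 36.6, 25.8 and 23.3 CPM in si mH2A1.2. The si mH2A1.2 samples stood apart from all others, at 4.02 times the level of si Ctrl (log2 2.01 ± 0.23, adjusted p = 0.00631, edgeR). Leaving out any sample of si Ctrl or si mH2A1.2, or si mH2A1.1 replicate 2 or 3, took its adjusted p to between 0.0104 and 0.0334 in edgeR, over the threshold. With the replicate number as a block, since samples of the same number deviated together in this contrast, 2 genes were called. No share of all tested genes is given for this fit.

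Between the knockdowns, Cd93 (log2 2.85 ± 0.35, adjusted p = 0.000646, edgeR) and C3ar1 (log2 2.39 ± 0.33, adjusted p = 0.00116, edgeR) were higher and Colec10 (log2 -2.01 ± 0.23, adjusted p = 0.000493, edgeR) was lower with si mH2A1.1 than with si mH2A1.2, and these 3 of 33 were differentially expressed, beside 6.38% of all tested genes. C3ar1 was at 1.2, 1.36 and 1.29 CPM in si Ctrl, 4.32, 2.2 and 3.2 CPM in si mH2A1.1 and 0.523, 0.887 and 0.43 CPM in si mH2A1.2, so that the 3 groups did not overlap. At an adjusted p of at most 0.05 there were 12 genes, 7 higher and 5 lower with si mH2A1.1, beside 22.5% of all tested genes. Among those not yet given in this contrast were, on the log2 scale, Fcna, a ficolin (1.88, adjusted p = 0.0146), Cr2, a complement receptor of B cells (1.71, adjusted p = 0.0293), Itgb2 (1.14, adjusted p = 0.0216) and Cd59a (0.98, adjusted p = 0.0103) with higher levels in edgeR. C1s2 (-2.23, adjusted p = 0.023), Colec12 (-1.35, adjusted p = 0.0169) and the regulator Cd46 (-1.08, adjusted p = 0.0333) were among the lower ones.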

How the data were processed

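RNA of C2C12 cells at day 4 of differentiation was measured in 9 samples, 3 per group. The authors selected poly(A) RNA, sequenced it as single 50 bp reads and used Salmon on mm10 to estimate reads per gene. The deposited table holds these expected counts as whole numbers, without normalization. A deposited normalized table, the same counts divided by 1 factor per sample, was not used. GENCODE M21 (GRCm38) named 52762 of the 52780 genes, and the other 18 stayed in the tests without a name. Groups and replicate numbers came from the sample labels.

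Counts were tested in R 4.3.3 with edgeR 4.0.16 (quasi-likelihood test, legacy form, TMM, filterByExpr on the groups, 19545 genes, Benjamini-Hochberg adjustment), with all samples in 1 model without a block and 3 contrasts. Calls needed an adjusted p under 0.01 and a log2 fold change of 0.8 or more in either direction. These are the cutoffs of the study's volcano plot, where the test was DESeq2, so counts made here with edgeR are not those of the study. Alternatives were DESeq2 1.42.0, its size factors in edgeR, limma-voom (limma 3.58.1), other filters on low counts, the replicate number as a block, the samples of the contrast alone, an adjusted p of at most 0.05 and leaving out each sample. The newer edgeR form, DESeq2 with the block and counts summed with a paralog or containing gene were added after the data had been seen. The tests were checked on simulated data. For si mH2A1.2 against si Ctrl, deviations from the group means correlated between samples of the same number (r = 0.331, 0.291 and 0.196), so these samples were treated as paired in an alternative fit.

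The 8 members, the lists and the motifs were chosen with earlier results of these data known. Named were the members, other complement genes with an adjusted p of at most 0.05 in a contrast, the most abundant remaining gene of each role, and the 2 most similar genes of each member. The values of some genes are not reported here. Cd68 and the promoters shown were chosen after their values were seen. Intervals and floors cover counting error and replicate spread of these samples only. Tables and plots were made in Python 3.11.15 (pandas 2.3.3, numpy 2.4.6, matplotlib 3.10.9).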

Additional observations from a re-analysis of the deposited data

How the results depend on the processing

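The count of members differentially expressed with si mH2A1.1 against si Ctrl, 0 in edgeR, was 1 with DESeq2, 1 without a filter on low counts (Cfb in both), 1 with the replicate block (C1s1), 3 with DESeq2 and the block (C1s1, Cfb and Serping1) and 1 at an adjusted p of at most 0.05, with or without the fold change cutoff. Against si mH2A1.2 it was 1, 1, 1, 2 and 1 in the same order. It was 0 in every alternative for si mH2A1.2 against si Ctrl, and 0 in all 3 contrasts with each sample left out, with DESeq2's size factors, limma-voom, at least 10 counts in every sample, the newer edgeR form, the samples of the contrast alone and counts summed with the partner gene. Of the 59 complement genes, 1 was called with si mH2A1.1 against si Ctrl, and 6 with DESeq2, 4 without the filter, 4 with the block, 8 with DESeq2 and the block, 5 at an adjusted p of at most 0.05 with either fold rule, and 0 to 1 with a sample left out. For si mH2A1.2 against si Ctrl, 1 was called, and 2 with DESeq2, 2 with the block, 3 with DESeq2 and the block, 0 with the samples of the contrast alone and 0 to 1 with a sample left out. Between the knockdowns 3 were called, and 11 with DESeq2, 9 without the filter, 9 with the block, 11 with DESeq2 and the block, 12 at an adjusted p of at most 0.05 with either fold rule and 3 to 6 with a sample left out. The shares of all tested genes called in the other fits are not given, so these counts cannot be set against them. The cause of these shifts was not tested.

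For the contrasts with si mH2A1.1, samples of the same number correlated at r = 0.0841 to 0.0976 with si Ctrl and 0.0917 to 0.116 with si mH2A1.2, not all over 0.1, although in 18 of 18 matches each sample correlated best with its own number. The main fit leaves out this matching by number, and the cutoff of 0.1 was set here. With the replicate block the log2 fold change of C1s1 was -2.30 against si Ctrl (adjusted p = 0.000866, edgeR) and -2.42 against si mH2A1.2 (adjusted p = 0.000189, edgeR). In edgeR the block changed no other call of a member. With si mH2A1.1 against si Ctrl, it did bring more members to an adjusted p of at most 0.05 in edgeR. These were C1ra (0.406 to 0.043), Serping1 (0.0521 to 0.0233), Cd55 (0.231 to 0.0225) and Masp1 (0.0592 to 0.0128). C3 (0.147) and C4b (0.127) stayed over 0.05 with the block. DESeq2 called Serping1 in this contrast with the block (adjusted p = 0.00921) and not without it (0.0374).

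Summed with C4a, C4b turned to -0.21 with si mH2A1.1 against si Ctrl, -0.16 with si mH2A1.2 against si Ctrl and -0.05 between the knockdowns. With 1 sample left out, the log2 fold changes with si mH2A1.2 against si Ctrl ran from -0.60 to 0.25 for C3, -0.13 to 0.54 for C4b, -0.40 to 0.17 for Cfb, -0.04 to 0.37 for C1ra, -0.51 to 0.69 for C1s1 and -0.43 to 0.08 for Cd55, so no direction holds for these 6 genes there. In the other contrasts the direction of every member held in all alternatives but the sum of C4b with C4a. C3 and C4b, at 5 to 59 counts per sample, are the members most limited by depth. In the 150 bases nearest the start the C1s1 promoter held 0 matches to TTGCNNAA.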
